A study of Homo sapiens with 6 samples.

Results

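The genes described here are the Fanconi anemia and homologous recombination genes of H460 cells, a human lung large cell carcinoma line. They were the rows of the deposited count table whose pathway annotation named the Fanconi anemia pathway or homologous recombination. The rule held for 79 rows, and 6 shared replication genes (POLD1, POLD2, POLD3, RPA1, RPA2 and RPA3) were left out by name, which left 73 of 31762 genes. Of these, 50 were annotated to the Fanconi anemia pathway and 35 to homologous recombination, with 12 in both. The study asked how the transcriptome of H460 cells changed under fluoxetine, an antidepressant that inhibits serotonin reuptake. Wild-type H460 cells were treated with 20 μM fluoxetine for 24 h (3 libraries) or kept as controls (3 libraries), and total RNA was sequenced. All cells were of the same line and were grown in the same medium. The labels named no vehicle for the controls and did not say whether the libraries came from separate cultures, so p-values measure the spread between these libraries only.

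Fanconi anemia genes act when both strands of DNA are joined by a crosslink. The core complex, recruited to the stalled fork by FANCM and its partners, attaches ubiquitin to FANCD2 and FANCI, and the modified pair directs nucleases to unhook the crosslink and translesion polymerases to copy past it. Homologous recombination then mends the break: the MRN complex and its partners resect the ends, BRCA1, PALB2 and BRCA2 prepare the exposed strand, and further factors pair it with an intact copy. Many of these genes are transcribed most strongly in S and G2 phase.

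Library totals were 19343565 to 27823667 counts in the controls and 16157507 to 17113538 in the fluoxetine libraries, so that 3 counts equalled 0.108 to 0.186 CPM (a gene's counts scaled to a common library total). Control replicate 3 stood apart by GC content. The deviation of its genes from their mean over the 6 libraries had a Spearman rho of -0.40 with GC content. Control replicates 1 and 2 had 0.30 and 0.39. The fluoxetine libraries had values of -0.12, 0.17 and -0.29, so fluoxetine replicate 3 lay nearest to control replicate 3. With exon length, rho was -0.28, -0.12 and 0.04 in control replicates 1, 2 and 3. In the fluoxetine libraries it was 0.16, 0.04 and 0.14, so the strongest length trend was that of control replicate 1. Epithelial markers summed to 3053 to 4022 CPM in the controls and 2685 to 3259 CPM with fluoxetine, led by KRT8. Nearly all of this sum came from KRT8, KRT19 and KRT18. The other listed markers, KRT7, EPCAM and CDH1, had control means of only 0.804, 0.414 and 0 CPM. Immune markers summed to at most 2.44 CPM, endothelial markers to at most 0.182 CPM and red cell markers to at most 0.104 CPM. Of these 3 lists, 3, 1 and 2 markers were not analysed here. Fibroblast markers summed to 30.4 to 32.7 CPM in the controls and 29.1 to 29.7 CPM with fluoxetine, a sum in which LUM rose (log2 fold change 0.88, adjusted p = 0.00448, edgeR) and COL3A1 fell (log2 fold change -0.53, adjusted p = 0.0145, edgeR).

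Fluoxetine libraries held less RNA of 8 of these genes: RAD51C, FANCG, RAD54L, FANCE, UBE2T, UIMC1, CENPX and FANCC. Their fitted levels decreased by 18.2% (FANCC) to 32.4% (RAD54L), and most of the pathway, BRCA1 and BRCA2 among it, did not pass the test. The 73 genes together took 0.261, 0.263 and 0.28% of all counts in the control libraries and 0.252, 0.237 and 0.25% in the fluoxetine libraries. All 3 fluoxetine libraries lay below all 3 controls. In RNA from whole cultures, fewer cells of a kind and less RNA per cell cannot be told apart. Of the 73 genes, 66 passed the filter on low counts and were tested among 15646 genes. At an adjusted p under 0.05 (edgeR quasi-likelihood test), 8 of the 66 fell with fluoxetine, beside 5.32% of all tested genes, and 0 rose, beside 7.76% of all tested genes. Without adjustment, 17 were lower and 5 higher at p under 0.05, beside 12.9% and 15.8% of all tested genes, and DESeq2 called 11 lower and 2 higher after adjustment, beside 7.73% and 8.08% of all genes it gave an adjusted p. None passed a fold of at least 2 together with the adjusted threshold in edgeR or DESeq2, nor with the unadjusted one in edgeR, beside 1.39% of all tested genes in edgeR. The median log2 fold change was -0.07 over the 66 genes and 0.03 over all tested genes. Fold changes were negative in 40 and positive in 26 of the 66, beside 45.8% negative among all tested genes.

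The number of calls rested on single libraries. It was 1 lower (RAD54L) without fluoxetine replicate 1, beside 1.01% of all tested genes, 5 without fluoxetine replicate 3, beside 2.01%, and 4 without control replicate 2, beside 2.75%. Without fluoxetine replicate 1, the 8 genes kept log2 fold changes of -0.32 (FANCC) to -0.66 (RAD54L), while the adjusted p of the 7 lost calls was 0.0632 (RAD51C) to 0.151 (FANCC) in edgeR. Without control replicate 3, the library that stood apart by GC content, 14 members fell and 5 rose, beside 12.7% and 10.3% of all tested genes. All 8 members lower in the fit of all libraries were among those 14; the added ones were MUS81, RMI2, SEM1, SSBP1, TELO2 and XRCC3, and those that rose were ABRAXAS1, ATM, PALB2, POLK and REV3L. The groups did not overlap for 18 members that were lower and 3 that were higher in every fluoxetine library, beside 14.4% and 17.5% of all tested genes.

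**Figure D1:**
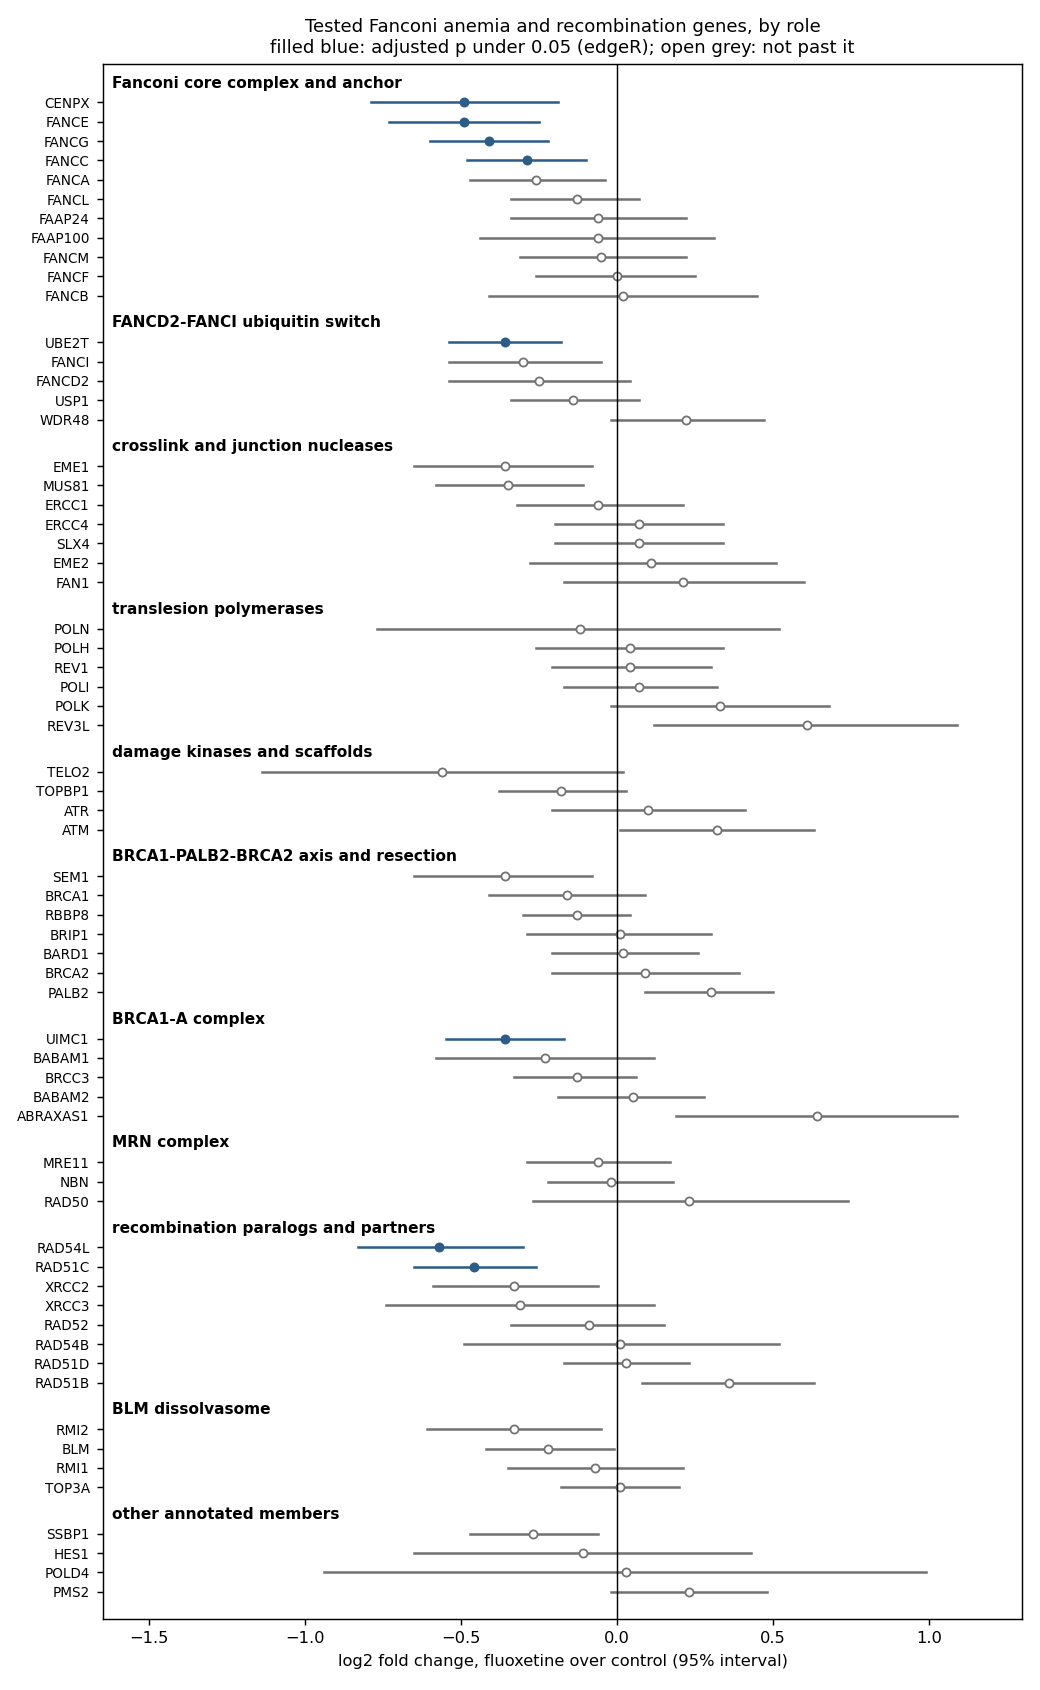
Log2 fold change, fluoxetine over control, of 64 of the 66 tested genes, grouped by role; points are edgeR estimates and lines their 95% intervals, over 3 libraries a group. The 8 filled points, all negative, passed an adjusted p of 0.05, and 4 of them are in the core complex.

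The core complex and its anchor held 4 of the 8 called genes: CENPX, FANCE, FANCG and FANCC, of 11 tested, beside 5.32% of all tested genes. Fold changes were negative in 10 of the 11, beside 45.8% of all tested genes, with a median log2 value of -0.13. FANCG, a scaffold of the core complex (ENSG00000221829, chr9:35073835-35080016, minus strand), stood at 44.3, 42.2 and 40.2 CPM in the controls and at 31.3, 31.5 and 32.6 CPM with fluoxetine. Every fluoxetine library lay below every control, and the fall was 0.41 on the log2 scale (log2 fold change -0.41, SE 0.09, adjusted p = 0.0129, edgeR). FANCE, which links the core complex to FANCD2 (ENSG00000112039, chr6:35452361-35467103, plus strand), measured 17.7, 16.7 and 16.3 CPM against 11.3, 12.5 and 12.2 CPM. The groups did not overlap, with a log2 fold change of -0.49 (SE 0.11, adjusted p = 0.0151, edgeR).

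FANCC, the partner of FANCE and FANCF within the complex (ENSG00000158169, chr9:95099054-95426796, minus strand), measured 37.9, 39.6 and 41.4 CPM in the controls and 32.6, 32.2 and 32.4 CPM with fluoxetine. The fluoxetine libraries lay close together and below the controls, with a log2 fold change of -0.29 (SE 0.08, adjusted p = 0.0479, edgeR). Its adjusted p was 0.0656 when libraries were scaled by size alone and ranged from 0.00162 to 0.151 over the 15 alternative analyses. Of the 6 analyses that left out 1 library, only 1 kept the FANCC call, the one without control replicate 3 (adjusted p = 0.0343, edgeR). CENPX, a histone-fold partner of FANCM that is also a centromere protein (ENSG00000169689, chr17:82018702-82024107, minus strand), measured 124, 108 and 84.4 CPM in the controls and 74.2, 84.6 and 66.4 CPM with fluoxetine. Control replicate 3 lay just under fluoxetine replicate 2, so its groups overlapped, unlike those of the other 7 called genes. Its log2 fold change was -0.49 (SE 0.14, adjusted p = 0.0397, edgeR), and -0.66 without control replicate 3. The call was lost in 4 of the 6 analyses that left out 1 library, with -0.39 and an adjusted p of 0.0913 without control replicate 1, and the adjusted p ranged from 1.73e-06 to 0.142 over the 15 alternatives.

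FANCA, the partner of FANCG within the core complex, measured 63.7, 66.7 and 64.7 CPM against 60.6, 47.5 and 55.1 CPM. All fluoxetine libraries were lower, but its log2 fold change of -0.26 missed the threshold (adjusted p = 0.106, edgeR). FANCM, the translocase that anchors the complex to DNA, had 23.4 ± 3.27 CPM in the controls and 22.7 ± 1.52 CPM with fluoxetine (mean ± SD, n = 3), with a log2 difference of -0.05 (95% interval -0.31 to 0.22). The remaining tested subunits, FANCL, FANCF, FANCB, FAAP24 and FAAP100, had log2 fold changes of -0.13 to 0.02.

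In the ubiquitin switch, UBE2T fell. UBE2T, the enzyme that supplies ubiquitin for FANCD2 (ENSG00000077152, chr1:202331657-202341980, minus strand), measured 142, 135 and 135 CPM in the controls and 102, 117 and 101 CPM with fluoxetine. Every fluoxetine library was lower, with a log2 fold change of -0.36 (SE 0.08, adjusted p = 0.0157, edgeR). Its substrates FANCI and FANCD2 did not pass the threshold in the fit of all libraries. FANCI measured 135, 141 and 165 CPM against 120.2, 103 and 137 CPM (log2 fold change -0.30, adjusted p = 0.112, edgeR), and its groups overlapped through control replicate 1 and fluoxetine replicate 3. FANCD2 had 37.2 ± 4.89 CPM against 31.2 ± 4.65 CPM, a log2 difference of -0.25 (95% interval -0.54 to 0.04). With GC content and length trends removed both fell, FANCI by 0.37 (adjusted p = 0.00373, edgeR; 0.0024 to 0.215 over the alternatives) and FANCD2 by 0.33 (adjusted p = 0.0204, edgeR; 0.0133 to 0.377). USP1, which removes the ubiquitin again, and its cofactor WDR48 had log2 fold changes of -0.14 and 0.22.

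**Figure D2:**
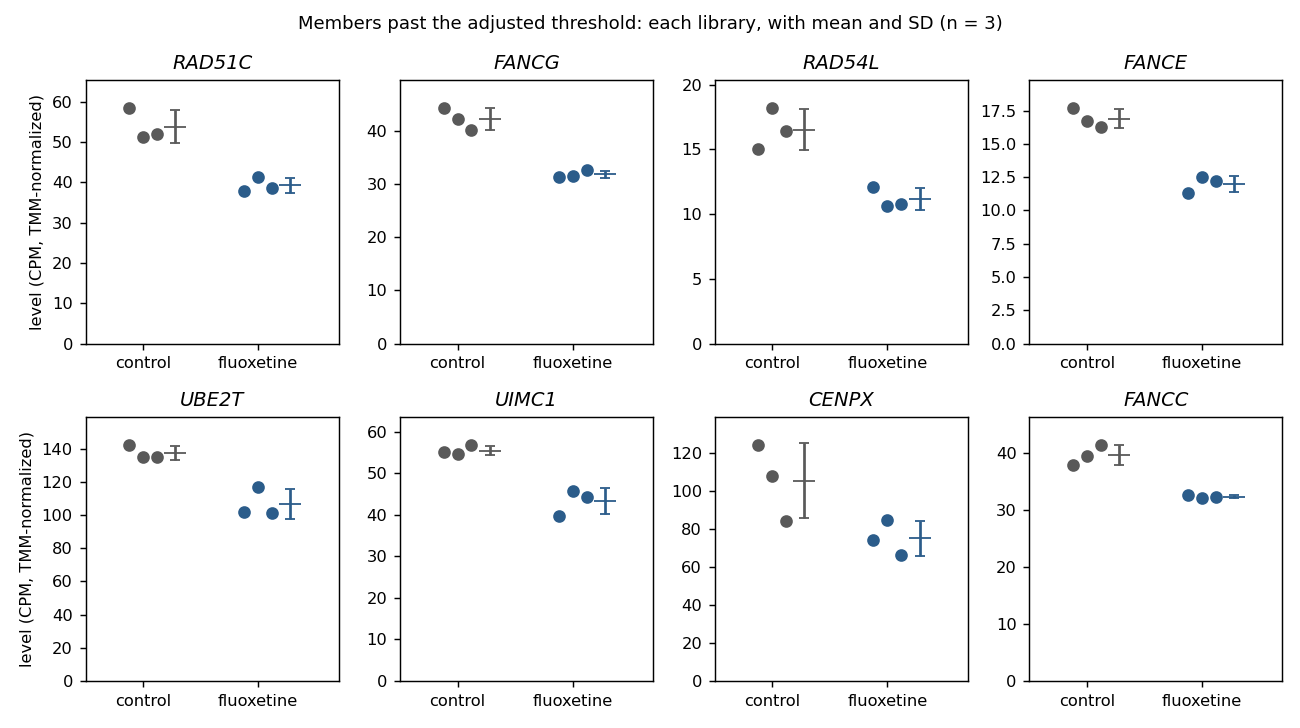
Level in each library (TMM-normalized CPM, axes from 0) of the 8 genes past the adjusted threshold; dots are libraries, bars the mean and SD of 3. Control and fluoxetine libraries separate in 7 panels, and in CENPX control replicate 3 at 84.4 CPM lies beside fluoxetine replicate 2 at 84.6 CPM.

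Among the recombination paralogs and their partners, RAD51C and RAD54L fell, of 9 tested genes. RAD51C, a recombination factor needed for crosslink resistance (ENSG00000108384, chr17:58692573-58735611, plus strand), measured 58.5, 51.2 and 52.0 CPM in the controls and 37.9, 41.4 and 38.7 CPM with fluoxetine. The groups were well apart, and its adjusted p was the smallest of the 66 (log2 fold change -0.46, SE 0.09, adjusted p = 0.00906, edgeR). RAD54L, a motor protein that helps strands pair (ENSG00000085999, chr1:46247688-46278473, plus strand), measured 15.0, 18.2 and 16.4 CPM against 12.1, 10.6 and 10.8 CPM. The groups did not overlap, and the log2 fold change was -0.57 (SE 0.12, adjusted p = 0.0141, edgeR). Its value is uncertain, since 806 of its 3212 exon bases lie in exons of LRRC41 on the other strand. LRRC41 had a mean count of 2059 against 283.7 for RAD54L, with a log2 fold change of -0.07, and whether the counting used strand is not given in the sources used here.

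RAD51B, another factor of this group, measured 6.61, 6.45 and 6.47 CPM against 8.61, 8.43 and 7.96 CPM. Its groups did not overlap, with a log2 fold change of 0.36 that missed the threshold (adjusted p = 0.0875, edgeR). XRCC2 had a log2 fold change of -0.33 (adjusted p = 0.1, edgeR), XRCC3 of -0.31 (adjusted p = 0.33, edgeR) and RAD51D of 0.03 (95% interval -0.17 to 0.23). For XRCC2 every fluoxetine library lay below every control, and DESeq2 called it lower (log2 fold change -0.35, adjusted p = 0.043, DESeq2). XRCC3 had only 23.3% of its exon bases outside the exons of other annotated genes, and its shared bases all lie with a gene on the other strand. RAD52, the annealing factor, had a log2 difference of -0.09 (95% interval -0.34 to 0.15), and RAD54B one of 0.01 (95% interval -0.49 to 0.52). The value of RAD54B is uncertain, since 3139 of its 5313 exon bases lie in exons of FSBP on the same strand.

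In the BRCA1-PALB2-BRCA2 axis, which acts at the resected end, 0 of 7 tested genes passed in edgeR; without adjustment 1 was lower and 1 higher, and DESeq2 called SEM1 lower. BRCA1 measured 79.3, 94.2 and 107 CPM in the controls and 87.3, 74.9 and 89.4 CPM with fluoxetine. The groups overlapped, with a log2 difference of -0.16 (95% interval -0.41 to 0.09). With GC content and length trends removed BRCA1 fell, by 0.26 on the log2 scale (adjusted p = 0.0186, edgeR; 0.0186 to 0.602 over the alternatives). BRCA2 measured 29.5, 30.0 and 39.9 CPM against 37.2, 30.6 and 38.0 CPM, again overlapping, with a log2 difference of 0.09 (95% interval -0.21 to 0.39). PALB2, the bridge between them, stood higher in each fluoxetine library, at 26.7, 28.7 and 30.2 CPM against 36.1, 33.1 and 35.9 CPM. Its log2 fold change of 0.30 missed the threshold (adjusted p = 0.0614, edgeR; 0.0126 to 0.283 over the 15 alternatives). BARD1, the partner of BRCA1, and BRIP1, its helicase, differed by 0.02 (95% interval -0.21 to 0.26) and 0.01 (95% interval -0.29 to 0.30) on the log2 scale.

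The BRCA1-A complex recognizes ubiquitin chains at breaks, and 1 of its 5 tested genes fell. UIMC1, its ubiquitin reader, also called RAP80 (ENSG00000087206, chr5:176905005-177022633, minus strand), measured 55.1, 54.5 and 56.7 CPM in the controls and 39.7, 45.7 and 44.2 CPM with fluoxetine. The groups did not overlap, with a log2 fold change of -0.36 (SE 0.09, adjusted p = 0.0218, edgeR). ABRAXAS1, the scaffold of the same complex, had the highest fold change of the 66, at 3.35, 5.67 and 6.08 CPM against 8.24, 7.42 and 7.96 CPM. All fluoxetine libraries were higher, but the log2 fold change of 0.64 (SE 0.20) missed the threshold (adjusted p = 0.0647, edgeR), while DESeq2 gave an adjusted p of 0.0387 and the range over the 15 alternatives was 0.000278 to 0.232.

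Neither the nucleases nor the translesion polymerases held a call in edgeR, of 7 and 6 tested; without adjustment 2 nucleases were lower and 1 polymerase higher, and DESeq2 called MUS81 lower and REV3L higher. The nuclease scaffold SLX4 and the nuclease ERCC4 each had a log2 fold change of 0.07, and FAN1 had one of 0.21. MUS81 and its partner EME1 had log2 fold changes of -0.35 and -0.36 (adjusted p = 0.0557 and 0.0925, edgeR). Both share exon bases on the other strand with more abundant genes, CFL1 at a mean count of 8053 and LRRC59 at 8923.8. The log2 fold change of CFL1 was -0.38, close to that of MUS81, and that of LRRC59 was -0.19. The part of these neighbours in the values of MUS81 and EME1 was not tested. REV3L, the catalytic subunit of polymerase zeta, measured 15.9, 21.5 and 29.6 CPM against 38.8, 25.2 and 38.4 CPM. Its groups overlapped, with a log2 fold change of 0.61 (SE 0.22, adjusted p = 0.0969, edgeR), and 0.84 (adjusted p = 0.00666) without control replicate 3, within a range of 8.88e-08 to 0.33 over the alternatives. POLH, which copies past ultraviolet damage, differed by 0.04 (95% interval -0.26 to 0.34).

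The damage kinases ATM and ATR, the MRN complex and the BLM group held no call in edgeR, of 4, 3 and 4 tested genes; without adjustment 1 kinase gene was higher and 2 BLM group genes lower, and DESeq2 called none. ATM measured 34.3, 36.8 and 45.8 CPM against 53.7, 39.9 and 52.9 CPM, with overlapping groups, and differed by 0.32 on the log2 scale (adjusted p = 0.157, edgeR). TELO2, which stabilizes these kinases, pointed the other way, at 53.5, 45.6 and 25.1 CPM against 30.9, 33.6 and 19.4 CPM. Control replicate 3 lay below 2 of the fluoxetine libraries, and the log2 fold change was -0.56 (SE 0.26, adjusted p = 0.187, edgeR), or -0.86 (adjusted p = 0.00474) without that library, within a range of 1.72e-06 to 0.46 over the alternatives. ATR differed by 0.10 (95% interval -0.21 to 0.41), MRE11 by -0.06 (95% interval -0.29 to 0.17) and NBN by -0.02 (95% interval -0.22 to 0.18). RAD50 was counted at 2.28 ± 0.536 against 2.67 ± 0.237 CPM, with 20.3% of its exon bases outside other genes' exons. BLM, the helicase that dissolves joined strands, had 41.7 ± 2.82 CPM against 35.9 ± 2.27 CPM and differed by -0.22 on the log2 scale (adjusted p = 0.159, edgeR). HES1, a Notch target listed with the Fanconi pathway, differed by -0.11 (95% interval -0.65 to 0.43).

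Levels per kilobase of exon ranged widely among the 66 tested genes. UBE2T was highest, at 83.1 CPM per kilobase in the controls, and POLN, a polymerase with a narrow range of tissues, was lowest, at 0.176. The 7 genes under the filter on low counts were ATRIP, CENPS, CENPS-CORT, RPA4, SLX1B, SYCP3 and TOP3B. Several of these share most of their exons with other annotated genes: 9.29% of the exon bases of TOP3B, 11.2% of CENPS-CORT, 17.6% of SLX1B and 35.3% of CENPS lay in no other gene's exon. Where a read falls in exons of more than 1 gene, counting can leave it out, so a low count of these genes need not be a low level of their RNA. All shared exon bases of TOP3B lie with a gene on the other strand. For TOP3B this could apply only if counting ignored strand, which is not known here. In all, 39 of the 73 genes shared exon bases with another gene of the table.

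**Figure D3:**
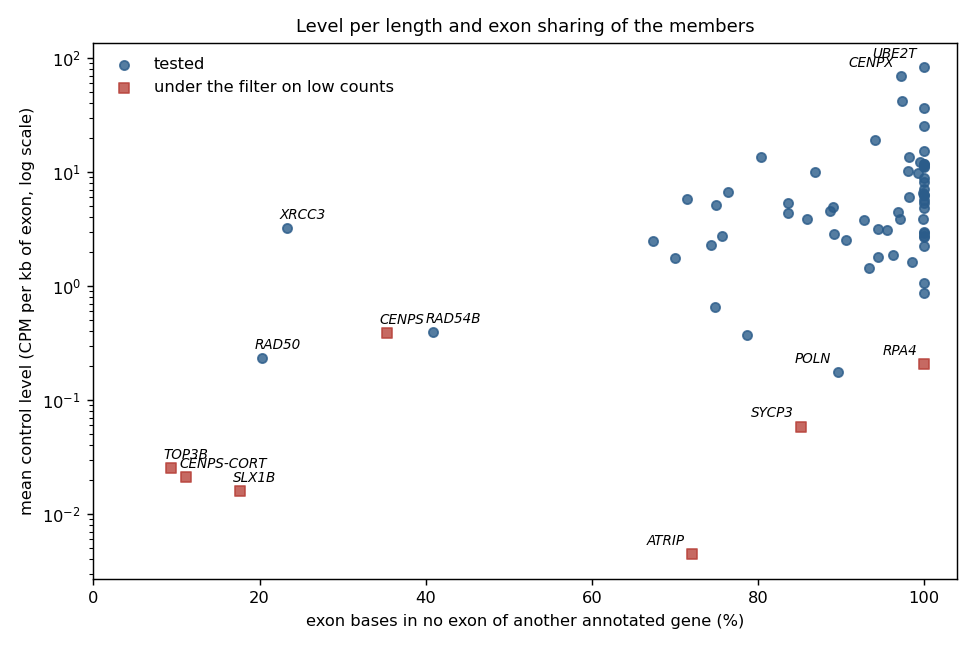
Mean control level (CPM per kilobase of exon, log scale) against the percent of a gene's exon bases that lie in no exon of another annotated gene, for 71 of the 73 genes; squares are the 7 genes under the filter on low counts. TOP3B, CENPS-CORT and SLX1B, at 9.29, 11.2 and 17.6%, lie at the lower left, and UBE2T at the upper right.

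Fold changes followed the length and GC content of the genes. Over the 66 genes, the log2 fold change had a Spearman rho of 0.40 with exon length and -0.36 with GC content, a description over genes of the same libraries; over 15600 tested genes the values were 0.17 and -0.16. Of the 8 called genes, 6 were among the 33 with exon length at or under the members' median of 5821 bases, and 6 among the 33 with GC content over their median of 43.4%. With both trends removed from each library, 19 of the 66 fell and 3 rose, beside 10.8% and 12.3% of all tested genes, and all 8 were among the 19. The added ones were BLM, BRCA1, FANCA, FANCD2, FANCI, MUS81, SEM1, SSBP1, TELO2, TOPBP1 and XRCC2, and those that rose were ABRAXAS1, PALB2 and REV3L. The part of these trends in each fall was not tested.

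The falls were compared with those of other genes of DNA repair and the cell cycle. Of 20 S phase markers 13 fell, and of 20 G2 and mitosis markers 11 fell, with medians of -0.40 and -0.30; UHRF1 fell most clearly in the first list (log2 fold change -0.54, adjusted p = 0.00186, edgeR) and CCNB1 in the second (log2 fold change -0.50, adjusted p = 0.00142, edgeR). CCNE2 and CENPF had the largest p in these lists, with log2 fold changes of -0.18 and -0.02. Genes of DNA replication fell in 17 of 33 cases and of mismatch repair in 9 of 18, with medians of -0.33 and -0.30, base excision repair in 12 of 32, nucleotide excision repair in 11 of 39 (3 rose) and end-joining in 3 of 9. These annotations share genes with one another, and the members were left out of each. The 6 genes left out of the members by name were not removed from these annotations. Among them, RPA2 had the smallest p in DNA replication and in nucleotide excision repair (log2 fold change -0.58, adjusted p = 0.00103, edgeR). The marker lists were not cleared of genes of these annotations. The share among the 66 Fanconi and recombination genes was 12.1%, beside 5.32% of all tested genes. Outside the Fanconi anemia and homologous recombination annotations, 2 of 34 further recombination factors fell and 1 rose, with a median of -0.19. The nuclease EXO1 had the smallest p there, at 666 ± 28.3 CPM against 438 ± 21.6 CPM (log2 fold change -0.61, adjusted p = 0.000542, edgeR). EXO1 was also counted in mismatch repair above. RIF1 had the largest p, with a log2 fold change of -0.01. Of 20 p53 target genes, 2 fell and 2 rose; PLK2 had the smallest p (log2 fold change -0.67, adjusted p = 0.00017, edgeR) and XPC the largest, at -0.02. The part of cell cycle phase in the falls of the 8 genes was not tested.

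**Figure D4:**
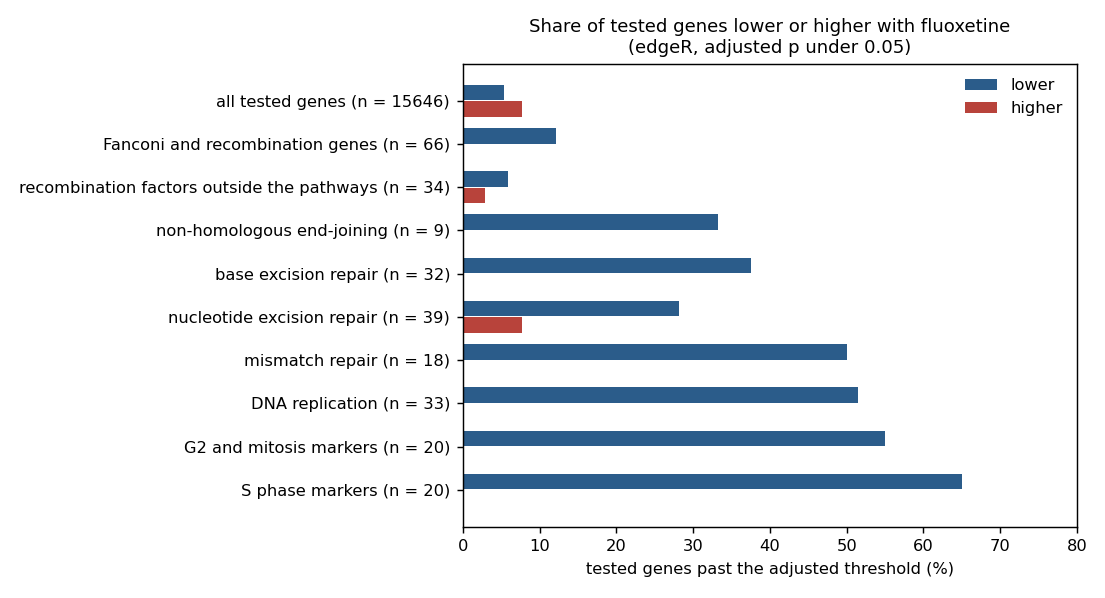
Percent of tested genes lower (blue) or higher (red) at an adjusted p under 0.05, for the Fanconi and recombination genes and other sets, with the number tested in each. The Fanconi and recombination bar stands at 12.1% lower, between 5.32% for all tested genes and 65% for S phase markers.

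Promoters were available for 66 of the 73 genes, each a window of 300 bases, 250 before and 50 after the gene's start, from RefSeq on GRCh38.p14. Stretches of 150 bases before the start are shown for UBE2T, FANCC and CENPX, which held motifs, and for RAD51C, which had the smallest p and held none. The stretch of RAD54L, not shown, held 1 CCAAT box. The RefSeq start differs from the start in the deposited table for some genes: it lay 109087 bases inside the gene as given above for FANCC, 1229 for CENPX and 44 for UBE2T, and 0 bases away for RAD51C. Capitals mark TTTCCCG and CCAAT on either strand (CCAAT reads ATTGG on the other).
UBE2T chr1:202341937-202342086 (-): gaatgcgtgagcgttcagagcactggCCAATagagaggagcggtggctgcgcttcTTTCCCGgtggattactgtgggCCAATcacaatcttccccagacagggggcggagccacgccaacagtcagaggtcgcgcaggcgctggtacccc
FANCC chr9:95317710-95317859 (-): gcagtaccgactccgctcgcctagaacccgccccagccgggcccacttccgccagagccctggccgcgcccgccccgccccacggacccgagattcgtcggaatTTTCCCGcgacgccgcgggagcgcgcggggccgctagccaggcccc
CENPX chr17:82022879-82023028 (-): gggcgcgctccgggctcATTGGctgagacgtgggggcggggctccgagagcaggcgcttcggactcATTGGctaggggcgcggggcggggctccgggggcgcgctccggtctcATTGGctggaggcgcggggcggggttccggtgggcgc
RAD51C chr17:58692423-58692572 (+): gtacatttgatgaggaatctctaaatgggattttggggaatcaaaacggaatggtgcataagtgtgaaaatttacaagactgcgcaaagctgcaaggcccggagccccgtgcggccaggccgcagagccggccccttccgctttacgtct

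The motifs were chosen after expression values had been seen. The E2F half-sites TTTGGCG and TTTCGCG were searched first, in each gene's window of lowest coordinate, and occurred in 0 of the 8 called genes, 6 of the 66 genes with a window (9.09%) and 5.15% of promoters of tested genes. After that result and the sequences had been seen, the first-listed window was taken in place of the lowest, since 5191 genes had more than 1, and the half-site TTTCCCG was added. In the first-listed windows the original pair occurred in 1 of the 8 (FANCC), 7 of 66 genes (10.6%) and 5.21% of promoters of tested genes. The FANCC match to that pair lies in its window but outside the stretch shown. With TTTCCCG included, the counts were 2 of the 8 (UBE2T and FANCC), 15 of 66 (22.7%) and 11.5%. UBE2T was counted through the added half-site alone, so the larger counts came from a search widened with the outcome known. CENPS and CENPS-CORT, both among the 15, are overlapping annotations. CCAAT occurred in 3 of the 8, 34.8% of the genes and 36.3% of promoters of tested genes, and the CHR element TTTGAA in 2 of the 8, 9.09% and 9.98%. A match is a description of letters and not a binding site.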

How the data were processed

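The authors deposited 1 table of whole-number counts per gene for the 6 libraries. Per the submitters' processing notes, fastp 0.20.0, HISAT2 2.1.0, HTSeq 0.10.0 and DESeq2 1.18.1 were used; the strand setting of counting is not given in the sources used here. The table's own fold change, p and adjusted p columns were not used. Genes with low counts were removed with edgeR's filterByExpr, libraries were TMM-normalized, and edgeR 4.0.16 (limma 3.58.1, R 4.3.3) quasi-likelihood tests compared fluoxetine with control over all tested genes, with Benjamini-Hochberg adjustment. DESeq2 1.42.0 and the other settings are given at the end. The procedure was run on simulated counts with equal relative spread for all genes and no GC content or length trend. That run cannot show how such trends, or a library that stands apart, affect the calls. CPM per library carry TMM scaling as computed here. Gene coordinates are those of the deposited table, whose starts and ends matched GENCODE 29 (GRCh38) for 96.76% of 31635 shared genes; exon lengths and sharing came from GENCODE 29. Members and lists were chosen with earlier results of these data known; exon sharing, the splits by length and GC content, and the motifs were examined after expression values had been seen, and CENPS-CORT was given its role after the table's gene names had been read. Genes were named by rule: every called member, a list of 30 central members, the highest and lowest per length, those under the filter, and of other lists the smallest and largest p; further members are named as chosen after their values were seen (FANCL, FANCF, FANCB, FAAP24, FAAP100, USP1, WDR48, SEM1, ABRAXAS1, MUS81, EME1, RAD54B, TELO2, TOPBP1, POLK, SSBP1, RMI2). Library totals and their 3-count floors cover counting error only. Values of some genes are not reported here.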

Additional observations from a re-analysis of the deposited data

How the results depend on the processing

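No called member changed direction in the 15 alternatives. Members lower and higher were 11 and 2 with DESeq2 (7.73% and 8.08% of all genes), 16 and 2 with no filter on low counts (4.77% and 4.39%), and 19 and 3 with GC content and length trends removed (10.8% and 12.3%). Whether equal replicate numbers pair the libraries could not be settled. Deviations of same-numbered libraries correlated at 0.0297, 0.116 and 0.392, and those of differently numbered ones at -0.38 to 0.32. With the replicate block the counts were 19 and 5 (11.4% and 14.3% of all genes). With block and trends removed together they were 22 and 4 (12.5% and 13.7%). Leaving out 1 replicate gave 1 to 14 lower (1.01% to 12.7% of all genes), 0 to 5 higher (2.53% to 10.3%) and medians of -0.14 to -0.08. The count moved less with RLE normalization (9 lower, 6.31% of all genes) and library size alone (7, 4.61%). The same held for at least 10 counts in every library (8, 5.75%) and equal depth (8, 5.14%). No member was called with a fold of at least 2 under any of the 15 alternatives. The 8 calls stayed called in each analysis of all libraries except FANCC under library size alone.

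Signs of values near 0 turned, and the cause was not tested. BRIP1 was -0.02 with DESeq2 and RLE, -0.03 without the filter and -0.09 with trends removed, with or without the block; BARD1 was -0.00, -0.00, -0.01, -0.04 and -0.03 in the same order. With trends removed, and with the block added, BRCA2 was -0.07 and -0.07, ATR -0.05 and -0.04, ERCC4 -0.03 and -0.03, and RAD51D -0.08 and -0.08; RAD51D was also -0.01 without the filter and -0.00 at equal depth. HES1 was 0.00 with trends and block and 0.01 at equal depth, and NBN 0.00 under library size. Leaving out 1 replicate gave ranges crossing 0 for ATR (-0.08 to 0.21), BARD1 (-0.10 to 0.08), BRCA2 (-0.02 to 0.21), BRIP1 (-0.12 to 0.09), ERCC4 (-0.05 to 0.09), FANCM (-0.16 to 0.04), HES1 (-0.26 to 0.09), MRE11 (-0.14 to 0.00), NBN (-0.12 to 0.04), POLH (-0.10 to 0.12), POLN (-0.29 to 0.09), RAD51D (-0.03 to 0.03) and SLX4 (-0.03 to 0.13).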
